A study of Mus musculus with 10 samples.

Results

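Mast cell and basophil genes were followed as 10 rows of the count table: *Cpa3*, *Mcpt4*, *Cma1*, *Tpsb2*, *Fcer1a*, *Ms4a2*, *Hdc*, *Kit*, *Mcpt8* and *Il4*. They were chosen by symbol, by matching the Ensembl identifiers of the table to GENCODE names on the mouse genome GRCm38, and are 10 of 45706 genes listed. RNA came from whole subcutaneous tumors of a *Braf*-driven melanoma line grown for 4 days in C57BL/6 hosts 8 weeks old. The 3 groups were *Ptgs*+/+ tumors in untreated hosts (WT_CTR, wildtype tumor cells, n = 4), *Ptgs*-/- tumors in untreated hosts (KO_CTR, Ptgs1/Ptgs2 deficient tumor cells, n = 3) and *Ptgs*-/- tumors in NK cell-depleted hosts (KO_aNK, n = 3). *Ptgs1* and *Ptgs2* encode the cyclooxygenases COX-1 and COX-2, which make prostaglandins, and CRISPR/Cas9 had disrupted them in the tumor cells alone, so all host cells in every group kept both genes. NK cells were depleted with anti-NK1.1 (clone PK136, 200 µg) and anti-ASIALO GM1 (30 µg) on days 0 and 2 by the labels. The study's methods give another schedule. The comparisons ask what differs in the tumor when the cancer cells lack cyclooxygenases, and what differs when NK cells are missing from the same tumors. Nothing says that hosts were pooled, so each library is taken as 1 tumor, and the study used mice of both sexes. A lone tumor line and its edited derivative stand behind all libraries.

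Mast cells are resident cells of skin and connective tissue that mature under stem cell factor, the ligand of the receptor tyrosine kinase encoded by *Kit*. They store histamine and serine proteases in granules and release them when antigen joins IgE held on the high-affinity receptor FcεRI. Basophils are blood granulocytes that share this receptor and histamine, carry few of the mast cell proteases and are known as an early source of interleukin-4.

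QuantSeq libraries read only the 3′ end of each transcript, so a gene's count does not scale with transcript length, and values are given as counts or as CPM, the count scaled to the total of its library. The libraries held between 8150556 and 12839174 counts, the fewest in *Ptgs*-/- replicate 1, and a floor of 3 counts corresponds to between 0.234 and 0.368 CPM. *Ptgs1* lay between 128.0 and 169.9 CPM in *Ptgs*+/+ tumors and between 77.0 and 105.4 CPM over both groups of *Ptgs*-/- tumors, and *Ptgs2* between 94.4 and 346.6 CPM against 27.0 and 74.8 CPM. Host cells transcribe both genes, and 3′ reads need not cover the edited bases, so these levels do not check the deletion itself. All 6 NK cell genes tested were lower in the depleted hosts than in *Ptgs*-/- tumors of untreated hosts. *Tyr*, *Tyrp1* and *Mlana*, which define pigmented melanocytes, had between 0 and 2 counts in every library, so the melanoma label cannot be read from them. *Ptgs*+/+ replicate 4 and *Ptgs*-/- replicate 3 carry the title code EB042 and the other 8 libraries EB046. *Ptgs*-/- replicate 1 held the least RNA of fat genes, 255.4 summed CPM over 6 genes where the other 9 libraries held 938.3 or more, and the depleted hosts' tumors held the most of 8 skeletal muscle genes, 2066 to 4892 summed CPM against 332.0 or less elsewhere. The part of surrounding tissue in the values below was not tested.

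The promoters of 3 proteases that moved together across the libraries, of the FcεRI alpha chain, which moved with them, and of *Hdc*, which lay lower in all 6 *Ptgs*-/- libraries than in any *Ptgs*+/+ tumor, are shown first. Each line is the 250 bases before the RefSeq transcription start on GRCm38.p6, 5′ to 3′ on the gene's strand. All 5 genes lie on the minus strand. The windows are chr3:20242182-20242431 for *Cpa3*, chr14:56062311-56062560 for *Mcpt4*, chr14:55944676-55944925 for *Cma1*, chr1:173227230-173227479 for *Fcer1a* and chr2:126618679-126618928 for *Hdc*. Capitals mark matches to the GATA motif, searched on both strands as AGATAA, or the form AGATAG, and likewise as TGATAA, or the form TGATAG. Family members known to act in mast cells include GATA1 and GATA2.
Cpa3: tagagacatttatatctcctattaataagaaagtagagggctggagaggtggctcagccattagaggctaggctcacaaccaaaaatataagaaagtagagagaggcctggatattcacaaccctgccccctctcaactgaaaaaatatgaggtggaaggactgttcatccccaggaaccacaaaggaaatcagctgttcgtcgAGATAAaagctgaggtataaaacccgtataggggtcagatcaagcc
Mcpt4: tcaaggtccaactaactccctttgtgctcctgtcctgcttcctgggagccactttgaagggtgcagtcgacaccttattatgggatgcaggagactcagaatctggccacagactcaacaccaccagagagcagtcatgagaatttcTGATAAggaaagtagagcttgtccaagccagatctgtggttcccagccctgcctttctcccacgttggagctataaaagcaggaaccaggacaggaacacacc
Cma1: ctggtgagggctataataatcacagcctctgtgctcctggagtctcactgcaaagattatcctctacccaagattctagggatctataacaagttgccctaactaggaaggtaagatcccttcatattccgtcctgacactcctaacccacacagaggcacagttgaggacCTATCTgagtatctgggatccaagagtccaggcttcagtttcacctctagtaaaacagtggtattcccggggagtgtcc
Fcer1a: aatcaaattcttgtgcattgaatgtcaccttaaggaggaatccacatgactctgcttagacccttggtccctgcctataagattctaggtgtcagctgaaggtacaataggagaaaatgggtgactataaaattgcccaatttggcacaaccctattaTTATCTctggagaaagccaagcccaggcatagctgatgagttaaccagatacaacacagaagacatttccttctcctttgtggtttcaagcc
Hdc: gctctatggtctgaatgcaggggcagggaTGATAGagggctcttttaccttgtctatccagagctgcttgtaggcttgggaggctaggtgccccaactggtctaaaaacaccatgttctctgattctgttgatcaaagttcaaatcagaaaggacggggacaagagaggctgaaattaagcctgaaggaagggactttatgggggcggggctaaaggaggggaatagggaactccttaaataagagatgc
The match begins 46 bases before the start in *Cpa3*, 103 in *Mcpt4*, 79 in *Cma1*, 92 in *Fcer1a* and 221 in *Hdc*. Of the 10 genes, 9 have a RefSeq window and 7 have a match in one, the others being *Ms4a2*, with 3 matches, and *Il4*, with 1 in one of its windows. Counted by window, 7 of the 11 windows of these 9 genes have a match. Such a match occurs in 26.54% of 32851 windows of this length, and 3 or more in 1.349%. *Kit* and *Mcpt8* have none, and *Tpsb2* has no window. The matches describe these letters only.

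The granule proteases did not differ between *Ptgs*+/+ and *Ptgs*-/- tumors beyond the spread between tumors, which was widest among the *Ptgs*-/- tumors. Their levels lay highest on average in NK cell-depleted hosts, where none of the 4 passed the test. *Cpa3*, the mast cell carboxypeptidase (ENSMUSG00000001865, chromosome 3, 20215620 to 20242181), had 33.7, 34.9, 16.9 and 27.6 CPM in *Ptgs*+/+ replicates 1 to 4, 8.96, 52.7 and 22.2 CPM in *Ptgs*-/- replicates 1 to 3, and 38.4, 60.9 and 51.7 CPM in the NK cell-depleted hosts. Every depleted library lay above every *Ptgs*+/+ library, and the *Ptgs*-/- libraries spanned from below the *Ptgs*+/+ range to above it. *Cma1*, a chymase (ENSMUSG00000022225, chromosome 14, 55941451 to 55944675), had 52.7, 43.6, 38.4 and 45.1 CPM in *Ptgs*+/+ tumors, 16.2, 99.1 and 47.0 CPM in *Ptgs*-/- tumors, and 68.4, 96.3 and 102.9 CPM in depleted hosts, with the same pattern of overlap. *Mcpt4*, the chymase of connective tissue mast cells (ENSMUSG00000061068, chromosome 14, 56059629 to 56062313), had 8.72, 9.38, 6.93 and 9.31 CPM in *Ptgs*+/+ tumors, 2.45, 15.6 and 7.75 CPM in *Ptgs*-/- tumors, and 8.03, 18.3 and 17.5 CPM in depleted hosts. *Tpsb2*, a tryptase (ENSMUSG00000033825, chromosome 17, 25366305 to 25369098), had 30.8, 30.6, 23.7 and 23.1 CPM in *Ptgs*+/+ tumors, 11.9, 66.1 and 29.0 CPM in *Ptgs*-/- tumors, and 29.6, 70.0 and 63.8 CPM in depleted hosts. For *Mcpt4* and *Tpsb2*, replicate 1 of the depleted hosts fell within the *Ptgs*+/+ range and the other two lay above it. In bulk tissue, fewer cells of a type and less RNA per cell cannot be told apart, here and below.

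**Figure D1:**
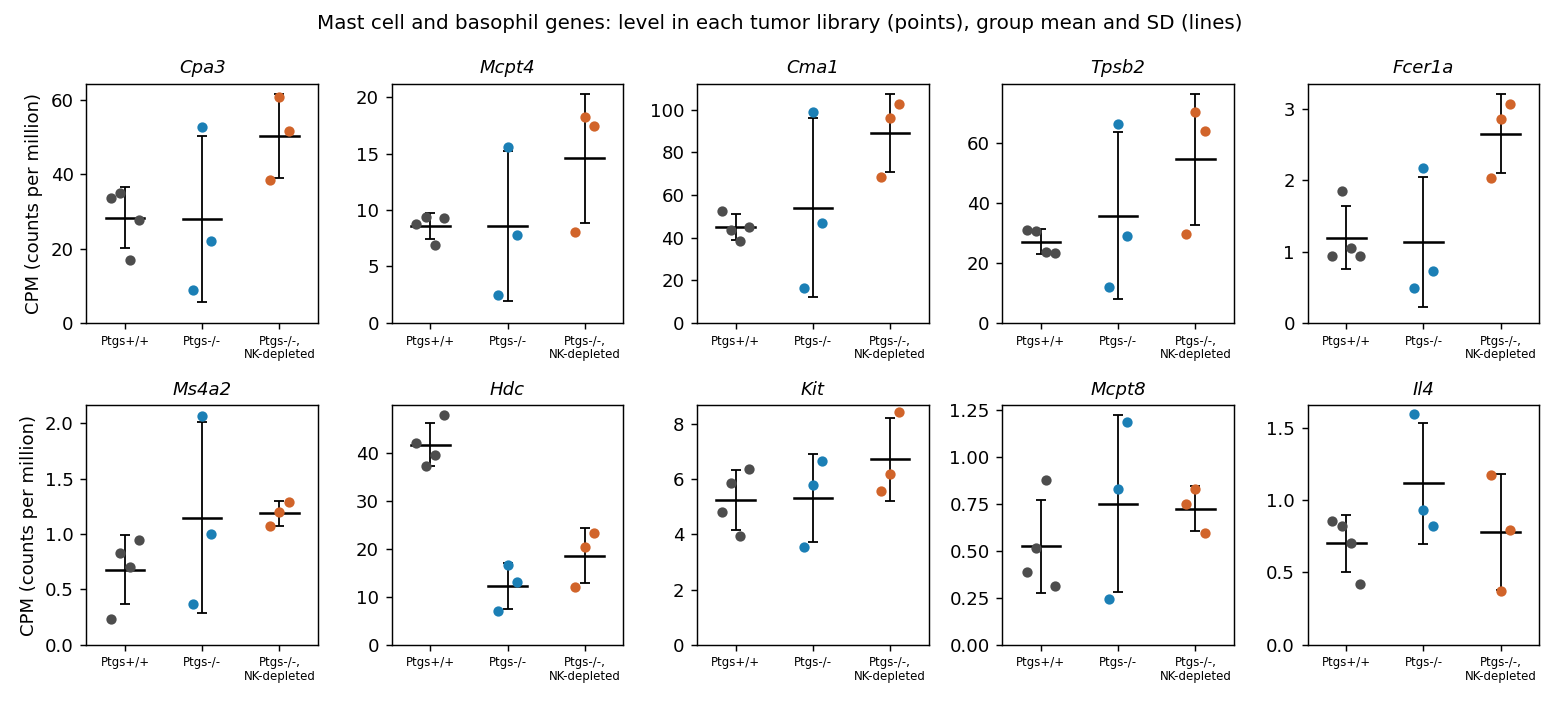
Level in CPM (y axis, from 0) of the 10 genes in each of 10 tumor libraries (points) by group (x axis), with the group mean (short line) and SD (bar). *Hdc* is the gene whose *Ptgs*+/+ points, 37.3 to 47.9 CPM, all lie above the points of both other groups, and the *Ptgs*-/- points of the proteases are far apart, from 8.96 to 52.7 CPM for *Cpa3*.

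The 3 comparisons were made with edgeR's quasi-likelihood test, and adjusted p-values (Benjamini-Hochberg) were taken over the 14550 genes that passed a filter on low counts. A gene was called at an adjusted p at or under 0.05, and, as the stricter call, also at an absolute log2 fold change of 1.5 or more. The filter kept 8 of the 10 genes, leaving out *Mcpt8* and *Il4*. Comparing *Ptgs*-/- with *Ptgs*+/+ tumors, the proteases had values on the log2 fold scale of -0.07 (SE 0.45) for *Cpa3*, -0.04 (SE 0.46) for *Mcpt4*, 0.21 (SE 0.41) for *Cma1* and 0.34 (SE 0.45) for *Tpsb2*, none of them called. The 95% interval for *Cpa3* ran from -1.05 to 0.91, so these tumors do not exclude a change within those bounds. Without *Ptgs*-/- replicate 2 the values for *Cma1* and *Tpsb2* were -0.56 and -0.46, and without replicate 1 those for *Cpa3* and *Mcpt4* were 0.34 and 0.38, so the direction rests on which tumor is counted. In NK cell-depleted against untreated hosts of *Ptgs*-/- tumors the log2 fold changes were 0.87 (SE 0.48), 0.78 (SE 0.48), 0.74 (SE 0.44) and 0.63 (SE 0.47) for *Cpa3*, *Mcpt4*, *Cma1* and *Tpsb2*, also not called.

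Against *Ptgs*+/+ tumors, the depleted hosts' tumors had log2 fold changes of 0.80 (SE 0.44) for *Cpa3*, 0.74 (SE 0.44) for *Mcpt4*, 0.95 (SE 0.41) for *Cma1* and 0.98 (SE 0.44) for *Tpsb2*, with adjusted p-values of 0.27, 0.319, 0.158 and 0.179 by edgeR's quasi-likelihood test. These groups differ in tumor genotype and in antibody treatment at once, which cannot be told apart here. The call for *Cma1* and *Tpsb2* turned with the fit. With only these 2 groups in the model the adjusted p was 0.00362 for *Cma1* and 0.0353 for *Tpsb2*, and without *Ptgs*-/- replicate 1, a library that is in neither group but adds to the shared estimate of spread, *Cma1* had 0.0204. Without *Ptgs*-/- replicate 2, in neither group likewise, *Cma1* had 0.0469 and *Fcer1a*, described below, 0.0481, all by edgeR. *Cpa3* and *Mcpt4* passed in none of the alternatives tried.

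**Figure D2:**
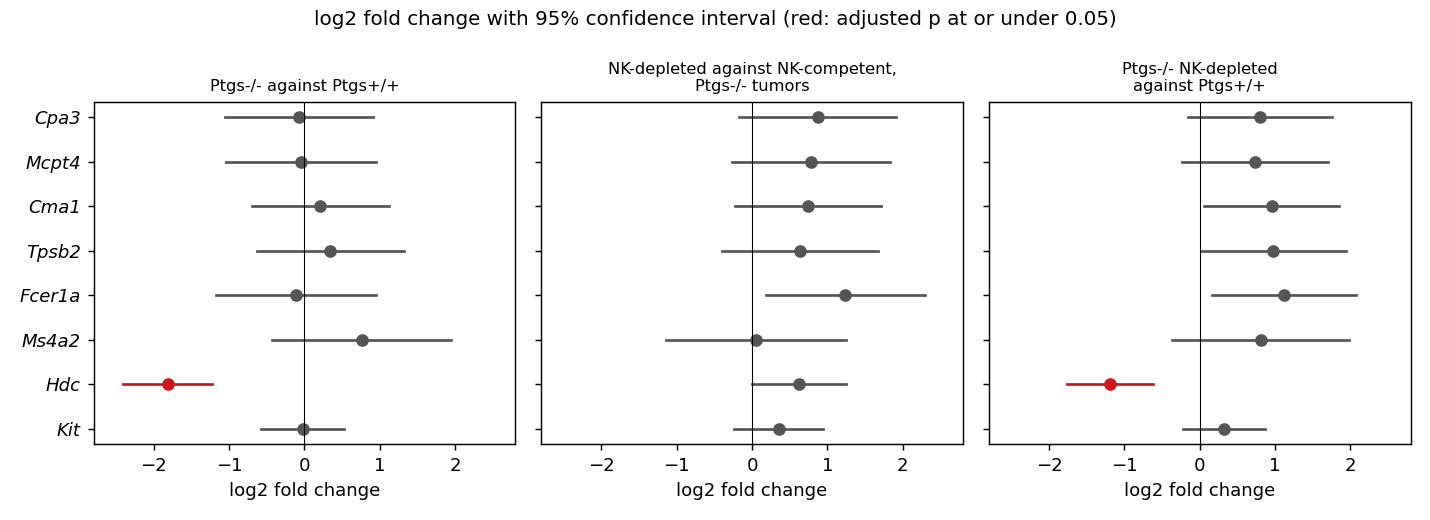
Log2 fold change (x axis) of the 8 genes tested, with 95% confidence interval (lines), in the 3 comparisons (panels). *Hdc*, in red, is the gene with an adjusted p at or under 0.05, at -1.82 and -1.20 in the left and right panels, and the intervals of the proteases span 0 in the left and middle panels. That of *Fcer1a* lies above 0 in the middle (0.18 to 2.29) and right (0.17 to 2.08) panels, without a call. Those of *Cma1* and *Tpsb2* do so in the right panel, also without a call.

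The 4 proteases kept nearly the same proportion to each other while their total varied. Summed, they came to 108.9 ± 17.5 CPM (SD, n = 4) in *Ptgs*+/+ tumors, 126.3 ± 98.6 CPM (SD, n = 3) in *Ptgs*-/- tumors and 208.6 ± 55.8 CPM (SD, n = 3) in depleted hosts. The highest *Ptgs*-/- tumor, replicate 2 with 233.5 CPM, held 5.91 times the lowest, replicate 1 with 39.5 CPM, whereas the ratio of highest to lowest was 1.46 in *Ptgs*+/+ tumors and 1.70 in depleted hosts. Over all 10 libraries the SD of log2 CPM was 0.84 for *Cpa3*, 0.83 for *Mcpt4*, 0.81 for *Cma1* and 0.80 for *Tpsb2*. The SD of the log2 ratio of each to the other 3 was 0.24, 0.21, 0.18 and 0.23, where counting alone would give 0.10, 0.16, 0.09 and 0.10. The genes lie on 3 chromosomes, *Cma1* and *Mcpt4* near each other on chromosome 14. Of the 50-base stretches in the last 500 bases of their transcripts, 12.86% for *Mcpt4* and 12.36% for *Cma1* also occur in another gene of the family, and 0% for *Cpa3* and *Tpsb2*, so a part of the reads of the 2 chymases may be shared with *Cma2*, *Mcpt9* or *Gm48934*.

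**Figure D3:**
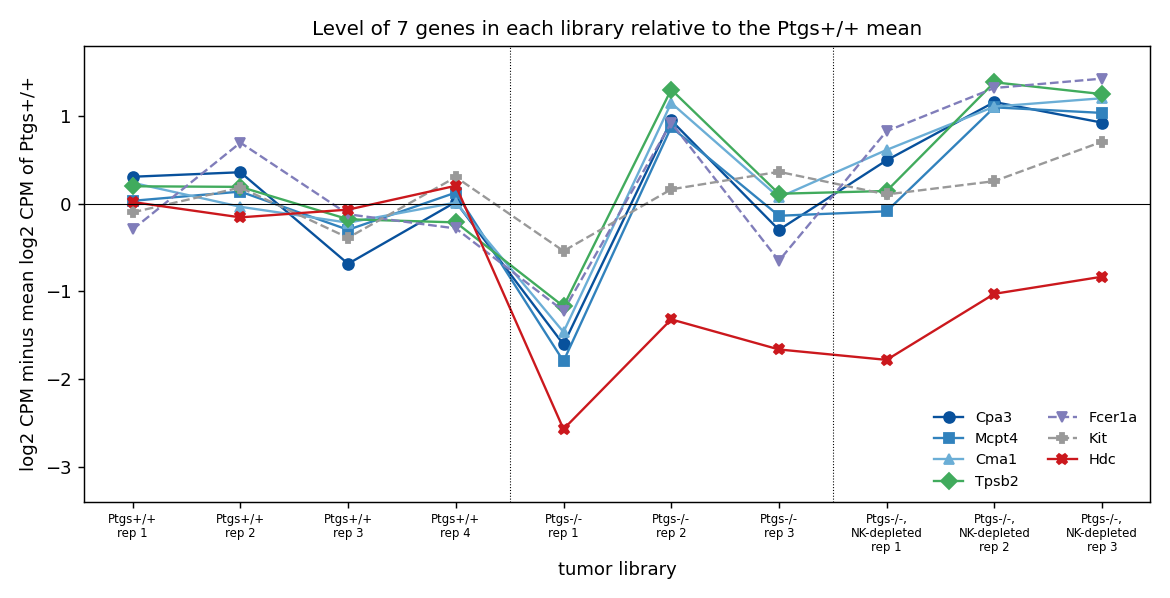
Log2 CPM minus the mean log2 CPM of the *Ptgs*+/+ tumors (y axis) for 7 genes (lines) in each of the 10 libraries (x axis, dotted lines between groups). The 4 proteases and *Fcer1a* dip together in *Ptgs*-/- replicate 1, where *Cpa3* was at 8.96 CPM, and rise together in replicate 2, where it was at 52.7 CPM, while *Hdc* stays below its *Ptgs*+/+ level in all 6 *Ptgs*-/- libraries. From that lower base *Hdc* also is lowest of its group in replicate 1 (-2.57) and highest in replicate 2 (-1.32).

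The FcεRI genes had few reads. *Fcer1a*, the IgE-binding alpha chain (ENSMUSG00000005339, chromosome 1, 173221284 to 173227214), had 12, 18, 12 and 9 counts in *Ptgs*+/+ tumors, 4, 21 and 8 counts in *Ptgs*-/- tumors, and 19, 31 and 31 counts in depleted hosts. In CPM the 3 depleted libraries, 2.03 to 3.08, lay above the 4 *Ptgs*+/+ libraries, 0.935 to 1.86, and the log2 fold change between them was 1.13 (SE 0.44, adjusted p 0.119 by edgeR's quasi-likelihood test). Against *Ptgs*-/- tumors of untreated hosts it was 1.24 (SE 0.48, adjusted p 0.353 by the same test), and the groups overlapped. *Ms4a2*, the beta chain that amplifies the signal (ENSMUSG00000024680, chromosome 19, 11615523 to 11623719), had 3, 8, 8 and 9 counts in *Ptgs*+/+ tumors, 3, 20 and 11 in *Ptgs*-/- tumors, and 10, 13 and 13 in depleted hosts. Its log2 fold change was 0.76 (SE 0.54) in *Ptgs*-/- against *Ptgs*+/+ tumors, 0.05 (SE 0.54) with depletion in *Ptgs*-/- tumors and 0.81 (SE 0.54) in depleted hosts against *Ptgs*+/+ tumors, none called.

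*Kit*, the stem cell factor receptor (ENSMUSG00000005672, chromosome 5, 75574916 to 75656722), varied least. It had 4.83, 5.88, 3.95 and 6.38 CPM in *Ptgs*+/+ tumors, 3.56, 5.79 and 6.66 CPM in *Ptgs*-/- tumors, and 5.56, 6.18 and 8.44 CPM in depleted hosts. All groups overlapped, and the log2 fold changes were -0.02 (SE 0.25), 0.35 (SE 0.27) and 0.33 (SE 0.25) in the order of the 3 comparisons above. Its SD over the 10 libraries was 0.36 on the log2 CPM scale. Melanocytes and progenitor cells also transcribe *Kit*.

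*Hdc* fell with loss of *Ptgs* in the tumor cells, and it was the only one of the 8 genes tested that was called in any comparison. It encodes histidine decarboxylase, the enzyme that makes histamine in mast cells and basophils, and is also transcribed in immature myeloid cells and neutrophils (ENSMUSG00000027360, chromosome 2, 126593667 to 126619299). *Ptgs*+/+ tumors had 42.1, 37.3, 39.7 and 47.9 CPM, *Ptgs*-/- tumors 6.99, 16.7 and 13.1 CPM, and *Ptgs*-/- tumors of depleted hosts 12.1, 20.4 and 23.3 CPM. All 6 *Ptgs*-/- libraries lay below all 4 *Ptgs*+/+ libraries. In *Ptgs*-/- against *Ptgs*+/+ tumors it changed by -1.82 on the log2 scale (SE 0.27, adjusted p 0.000934 by edgeR's quasi-likelihood test), past both thresholds. Of all genes tested in this comparison, 23.1% were called by adjusted p, 11% as lower, and 4.15% by both thresholds, 1.01% as lower, so 1 gene of 8 lies near the background by adjusted p. Within the libraries of code EB046 the value was -1.76 (adjusted p 0.0133 by the same edgeR test).

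In NK cell-depleted hosts *Hdc* also lay below the level of *Ptgs*+/+ tumors. Its log2 fold change in depleted against untreated hosts of *Ptgs*-/- tumors was 0.62 (SE 0.28, 95% interval -0.00118 to 1.24, adjusted p 0.447 by edgeR's quasi-likelihood test), and the 2 groups overlapped. Here 1.44% of all genes were called by adjusted p, 1.15% by both thresholds, and none of the 8 genes. At an unadjusted p under 0.05 there was 1 of the 8, *Fcer1a*. In depleted hosts against *Ptgs*+/+ tumors there were 4 of 8, and in *Ptgs*-/- against *Ptgs*+/+ tumors 1. The share of all genes under this unadjusted cutoff was not taken, so these counts do not set the 8 genes apart. With NK depletion DESeq2's Wald test and edgeR's likelihood ratio test also called 0. Against *Ptgs*+/+ tumors the log2 fold change of *Hdc* was -1.20 (SE 0.26, adjusted p 0.0122 by the same edgeR test), past the adjusted p and not the fold threshold, where 12.5% of genes were called by adjusted p, 5.87% as lower, and 2.71% by both thresholds. Without replicate 1 of the depleted hosts, the library lowest in *Hdc* of that group, it was -0.97 with an adjusted p of 0.0502 by edgeR's test, and within EB046 it was -1.12 with 0.0434.

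Measured against the proteases of the same library, *Hdc* was lower in every *Ptgs*-/- tumor as well, a scale added after the data were seen. *Ptgs*+/+ tumors held 33.5, 31.5, 46.1 and 45.6 *Hdc* counts per 100 counts of *Cpa3*, *Mcpt4*, *Cma1* and *Tpsb2*, *Ptgs*-/- tumors 17.7, 7.13 and 12.4, and depleted hosts' tumors 8.37, 8.31 and 9.89. The difference in the log2 ratio was -1.73 for *Ptgs*-/- and -2.12 for depleted hosts, each against *Ptgs*+/+ tumors, and both had p = 0.0571 in a two-sided exact permutation test, the smallest that 3 against 4 libraries allow, and 0.411 after adjustment over 18 such tests. The ratio takes in the protease level too, which averaged 108.9 CPM in *Ptgs*+/+ tumors and 208.6 CPM in depleted hosts. For *Hdc* by itself the log2 fold change between these 2 groups was -1.20. The ratio in the depleted group was less spread, 8.86 ± 0.90 (SD, n = 3), than in *Ptgs*-/- tumors of untreated hosts, 12.4 ± 5.28 (SD, n = 3), where the low ratio belongs to the tumor with the most protease counts. The summed level of 8 neutrophil genes had the same order of groups, but not each gene did. The sum over *S100a8*, *S100a9*, *Csf3r*, *Cxcr2*, *Retnlg*, *Ly6g*, *Trem1* and *Cxcr1* was 202.4 to 273.0 CPM in *Ptgs*+/+ tumors, 39.5 to 59.1 CPM in *Ptgs*-/- tumors and 86.3 to 123.5 CPM in depleted hosts. Of 6 tested, 4 (*S100a8*, *S100a9*, *Cxcr2* and *Trem1*) were called as lower in both comparisons with *Ptgs*+/+ tumors. Of all genes, 11% were called as lower in *Ptgs*-/- tumors and 5.87% in depleted hosts. *Ly6g* and *Cxcr1* were not tested and stood near the floor in every group. They had 0 to 5 and 0 to 2 counts in *Ptgs*+/+ libraries, and 0 in all 3 *Ptgs*-/- libraries of untreated hosts, so these zeros show no difference. *Csf3r*, with log2 fold changes of 0.61 (SE 0.27) in *Ptgs*-/- and 0.42 (SE 0.27) in depleted hosts' tumors against *Ptgs*+/+ tumors, neither called, and *Retnlg*, at means of 5.41, 6.75 and 18.7 CPM in *Ptgs*+/+, *Ptgs*-/- and depleted hosts' tumors, did not follow that order, and *Retnlg* was called as higher in depleted hosts than in *Ptgs*+/+ tumors (log2 fold change 1.77, SE 0.40, adjusted p 0.0139 by edgeR's quasi-likelihood test). The part of neutrophils in the *Hdc* level was not tested.

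**Figure D4:**
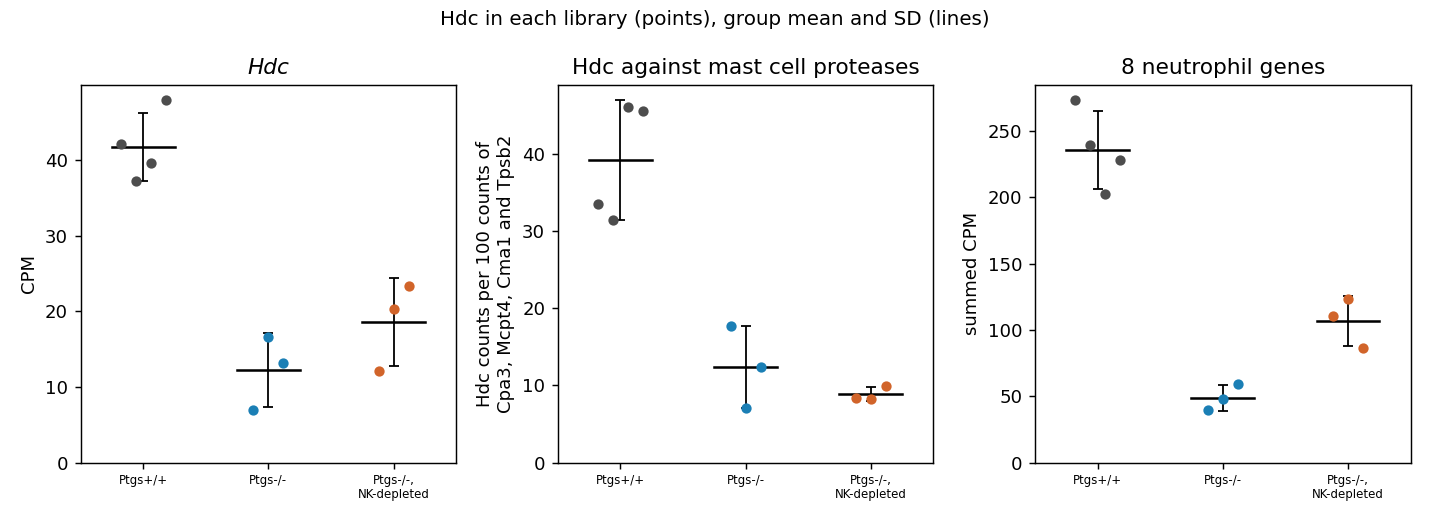
*Hdc* in CPM (left), *Hdc* counts per 100 counts of the 4 proteases (middle) and the summed CPM of 8 neutrophil genes (right), all y axes from 0, in each library (points) with group mean (short line) and SD (bar). In each panel the *Ptgs*+/+ points lie above those of both other groups, in the middle panel at 31.5 to 46.1 against 17.7 or less.

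*Mcpt8* and *Il4* stood near the detection floor. *Mcpt8*, the protease that marks mouse basophils (ENSMUSG00000022157, chromosome 14, 56082166 to 56085273), had 5, 5, 10 and 3 counts in *Ptgs*+/+ tumors, 2, 8 and 13 in *Ptgs*-/- tumors, and 7, 9 and 6 in depleted hosts. The exact binomial 95% interval of the highest library, *Ptgs*-/- replicate 3, ran from 0.631 to 2.03 CPM and that of the lowest, replicate 1, from 0.0297 to 0.886 CPM. *Il4*, a cytokine also made by T cells (ENSMUSG00000000869, chromosome 11, 53602982 to 53618669), had 11, 8, 8 and 4 counts in *Ptgs*+/+ tumors, 13, 9 and 9 in *Ptgs*-/- tumors, and 11, 4 and 8 in depleted hosts. All groups overlapped for both genes. By two-sided exact permutation tests of CPM the p-values ran from 0.171 to 0.9, and from 0.771 to 0.9 after adjustment over 6 tests. The smallest p that these tests allow is 0.0571 for 3 against 4 libraries and 0.1 for 3 against 3. They could therefore call no difference of any size, and nothing follows from their outcome. With 2 to 13 counts a library, depth limits both genes too. The binomial intervals cover counting error only. *Prss34*, another basophil protease, had between 1 and 11 counts.

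As a list, the 8 genes tested lay at a median of -0.03 on the log2 fold scale in *Ptgs*-/- against *Ptgs*+/+ tumors, at 0.69 with NK depletion in *Ptgs*-/- tumors and at 0.81 in depleted hosts against *Ptgs*+/+ tumors, where the medians over all genes tested were -0.01, 0.01 and -0.01. Any 2 of these comparisons share a group of libraries. Without *Ptgs*-/- replicate 2 the median with NK depletion was 1.43, and without replicate 1 it was 0.34. Between depleted hosts and *Ptgs*+/+ tumors the libraries did not overlap for *Cpa3*, *Cma1*, *Fcer1a* and *Ms4a2*, which lay higher, and for *Hdc*, which lay lower, where 15.1% and 12% of all genes did so. *Hdc* alone did so between *Ptgs*-/- and *Ptgs*+/+ tumors (12.5% of all genes lower), and no gene of the 8 did between the *Ptgs*-/- groups (17.6% of all genes).

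The genes whose log2 CPM followed *Cpa3* most closely over the 10 libraries included the other proteases. Pearson's r was 0.96 for *Cma1*, 0.95 for *Mcpt4*, 0.93 for *Tpsb2*, 0.89 for *Fcer1a*, 0.75 for *Kit*, 0.61 for *Ms4a2* and 0.30 for *Hdc*. Outside the 10 genes the highest of 14549 genes ranked were *Hapln3* (0.93), *Sgsh* (0.90), *Enpp3* (0.89), *Msx1* (0.89) and *Mrgprb1* (0.88). *Enpp3* encodes CD203c, an ectoenzyme of basophils and mast cells, *Mrgprb1* a receptor of the family through which mast cells sense peptides, and *Sgsh* a lysosomal sulfatase that degrades heparan sulfate. *Hapln3* had between 1 and 15 counts. The value for *Hdc* takes in its lower level in both *Ptgs*-/- groups, and among the *Ptgs*-/- tumors of untreated hosts *Hdc*, like *Cpa3*, was lowest in replicate 1 and highest in replicate 2. The points share libraries and depth, and *Ptgs*-/- replicates 1 and 2 are the ends of the range for the proteases, so these values describe the 10 libraries. Of these 5 genes, picked on the same libraries, *Enpp3* alone was called in any comparison, as higher in depleted hosts than in *Ptgs*+/+ tumors by 0.95 on the log2 scale (SE 0.28, adjusted p 0.0472 by edgeR's quasi-likelihood test). That call was lost in 13 of 19 alternatives, run for it after the data were seen. *Tpsab1*, the other tryptase, had an r of 0.88, with 1.75 to 2.20 CPM in *Ptgs*+/+ tumors, 0.736, 4.45 and 1.19 CPM in *Ptgs*-/- tumors and 2.03, 5.07 and 4.97 CPM in depleted hosts, and was not called in any comparison. Not all genes linked to mast cells followed *Cpa3*. Among those described below, r was 0.58 for *Gata2*, 0.17 for *Hpgds*, 0.11 for *Mitf*, -0.11 for *Rab27b* and -0.22 for *Il1rl1*.

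Of 17 other genes linked to mast cells, 12 were tested, and in *Ptgs*-/- against *Ptgs*+/+ tumors 1 rose and 2 fell, where 23.1% of all genes were called, so the count lies near the background. *Il1rl1*, the interleukin-33 receptor ST2, fell most, from 446.5 to 633.5 CPM in *Ptgs*+/+ tumors to 170.5, 76.9 and 93.1 CPM in *Ptgs*-/- tumors and 129.2, 122.3 and 111.0 CPM in depleted hosts. Its log2 fold changes against *Ptgs*+/+ tumors were -2.32 (SE 0.25) and -2.21 (SE 0.25), with adjusted p-values of 0.000158 and 0.000201 by edgeR's quasi-likelihood test. Regulatory T cells, innate lymphoid cells and stromal cells also transcribe it. *Rab27b*, a GTPase of granule release, fell by 0.91 (SE 0.25), and *Hpgds*, the prostaglandin D synthase of mast cells and some macrophages, rose by 0.66 (SE 0.17), both on the log2 scale in *Ptgs*-/- against *Ptgs*+/+ tumors. The call of *Rab27b* was lost in 3 of 20 alternatives and that of *Hpgds* in 1 of 20. *Gata2* had 10.2, 10.3, 3.07 and 10.99 CPM in *Ptgs*+/+ tumors, 4.29, 5.48 and 4.83 CPM in *Ptgs*-/- tumors and 6.96, 7.93 and 8.24 CPM in depleted hosts, with a log2 fold change of -0.88 (SE 0.35) in the first comparison that was not called. *Mitf*, a regulator of both mast cells and melanocytes, was not called either, at 0.35 (SE 0.18).

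Of 8 other genes linked to basophils 5 were tested. In *Ptgs*-/- against *Ptgs*+/+ tumors 1 rose and 1 fell, where 12.1% of all genes rose and 11% fell. With 5 genes, counts of 1 do not set the list apart. *Cd200r3*, a basophil and mast cell receptor, had 0.935, 0.928, 1.05 and 0.732 CPM in *Ptgs*+/+ tumors, 2.09, 3.62 and 3.47 CPM in *Ptgs*-/- tumors and 1.28, 2.40 and 2.48 CPM in depleted hosts. Both groups of *Ptgs*-/- tumors lay above the *Ptgs*+/+ tumors. In untreated hosts 3 of the 5 genes did so, and this is not particular to *Cd200r3*. The share of all genes that did so there is not given, so this count cannot be set against a background. In depleted hosts 1 of the 5 did so, where 15.1% of all genes lay higher without overlap. The log2 fold changes of *Cd200r3* were 1.67 (SE 0.32, adjusted p 0.00354) and 1.13 (SE 0.33, adjusted p 0.0448) against *Ptgs*+/+ tumors by edgeR's quasi-likelihood test. The second call was lost in 12 of 19 alternatives tried. *Ifitm1*, an interferon-induced membrane protein that basophils and many other cells carry, fell by 1.95 (SE 0.21) and, in depleted hosts, by 1.65 (SE 0.21) on the log2 scale.

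Of 12 genes that carry or accompany the FcεRI signal 11 were tested, and 8 rose and 1 fell in *Ptgs*-/- against *Ptgs*+/+ tumors, where 12.1% of all genes rose and 11% fell. Those that rose were *Fcer1g*, the shared gamma chain, by 0.69 (SE 0.13), the kinases *Lyn* by 0.61 (SE 0.11), *Syk* by 0.69 (SE 0.14), *Btk* by 0.79 (SE 0.23) and *Fyn* by 0.75 (SE 0.13), the adaptor *Lat* by 2.39 (SE 0.39), the phospholipase *Plcg2* by 0.86 (SE 0.19) and the phosphatase *Inpp5d* by 0.54 (SE 0.15), all on the log2 scale. NK cells, T cells and macrophages use most of these genes too, and all 6 NK cell genes and 5 of 7 genes of T and innate lymphoid cells tested rose in the same comparison. The part of those cells was not tested. *Cd63*, a granule and lysosome membrane protein found in most cells, fell by 0.72 (SE 0.11). With NK depletion none of the 11 was called. In depleted hosts against *Ptgs*+/+ tumors *Lat* (1.42, SE 0.41) and *Fyn* (0.55, SE 0.13) were higher and *Cd63* fell by 0.58 (SE 0.11), where 6.63% of all genes were called as higher. The call of *Btk* was lost in 7 of 20 alternatives, that of *Inpp5d* in 2 of 20, and in depleted hosts that of *Lat* in 8 of 19 and that of *Fyn* in 1 of 20.

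Of 13 growth factors, alarmins and their receptors 8 were tested. *Kitl*, which encodes stem cell factor, had 52.7, 59.1, 60.4 and 56.6 CPM in *Ptgs*+/+ tumors, 90.4, 66.4 and 77.6 CPM in *Ptgs*-/- tumors and 92.1, 80.1 and 90.1 CPM in depleted hosts. No *Ptgs*-/- library reached down to the *Ptgs*+/+ range. The log2 fold change was 0.39 (SE 0.12, adjusted p 0.031) in *Ptgs*-/- tumors and 0.58 (SE 0.12, adjusted p 0.00734) in depleted hosts, by edgeR's quasi-likelihood test, the first lost in 8 of 20 alternatives. *Tslp*, an epithelial alarmin, was higher in depleted hosts than in *Ptgs*+/+ tumors (1.25, SE 0.35), a call lost in 9 of 20 alternatives, and *Il33*, the ligand of ST2, was not called, at -0.19 (SE 0.17) in *Ptgs*-/- tumors. *Il3* had 0 counts in all libraries, which allows up to 0.368 CPM in the shallowest. Of 6 genes of histamine receptors and breakdown 4 were tested, and *Hrh2*, the H2 receptor, rose by 1.36 (SE 0.36) on the log2 scale in *Ptgs*-/- against *Ptgs*+/+ tumors, from 5 to 8 counts up to 11, 19 and 19, a call lost in 2 of 19 alternatives. No gene of these 5 lists was called with NK depletion in *Ptgs*-/- tumors, where 1.44% of all genes were called, so a count of 0 does not set them apart.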

How the data were processed

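The authors trimmed QuantSeq reads with BBDUK, fqtrim and cutadapt, aligned them to GRCm38 with STAR and assigned them to Ensembl genes with featureCounts, and the deposited values are raw counts per gene, not normalized or pooled. Whether counting used strand, multimapping reads or molecular identifiers is not given in the sources used here. The 10 genes and all gene lists were chosen with earlier results of these data known. Of 45706 identifiers 45143 matched a GENCODE M21 name.

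Counts were fitted in R 4.3.3 with edgeR 4.0.16 (filterByExpr, TMM, quasi-likelihood test, all 10 libraries in 1 model). CPM used library size alone, and likeness to *Cpa3* used TMM-scaled log2 CPM with a prior count of 2. Genes under the filter were compared by exact permutation over every split of the libraries, and the binomial intervals were made with scipy 1.17.1. The fit was tested on simulated data. P-values measure the spread between tumors. Replicates differed by 7.71 to 32.0 chi-square units per degree of freedom, so none was counted as a duplicate. Alternatives were DESeq2 1.42.0, other scalings, filters and tests, the title code, the label number as a block and each library left out.

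Genes named are the 10, those of the 5 related lists called in a comparison, 8 markers whatever their values (*Tpsab1*, *Gata2*, *Fcer1g*, *Kitl*, *Il33*, *Mitf*, *Prss34* and *Cd200r3*) and the 5 most like *Cpa3*. Neutrophil, fat, muscle, NK, T cell and melanocyte lists are given by sums and counts. Eosinophil genes summed to 4.64 to 7.53 CPM in *Ptgs*+/+ tumors and 20.5 to 39.7 CPM in the others, with *Epx* at 0 throughout, 6 skin epithelium genes to 16.6 to 23.0 CPM, and 6 fibroblast genes to 7516 to 16624 CPM.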

Additional observations from a re-analysis of the deposited data

Results flagged for a closer look

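The level of *Fcer1a* in *Ptgs*+/+ replicate 2 was 1.86 CPM, against 0.935 to 1.05 CPM in the other 3 *Ptgs*+/+ libraries. Its distance to the nearest of them was 0.871 of the group's range, above Dixon's 95% critical value for 4 libraries. The library holds 18 counts of the gene where the others hold 9 to 12. Of 11 groups of values examined this was the only one past the limit, and chance alone passes about 1 in 20. Without this library the log2 fold change of *Fcer1a* in *Ptgs*-/- against *Ptgs*+/+ tumors was 0.17, from -0.11 with it, and neither was called.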

How the results depend on the processing

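The call of *Hdc* in *Ptgs*-/- against *Ptgs*+/+ tumors kept its direction and its side of the threshold in all 20 alternatives, and no gene of the 8 was called with NK depletion in any. In depleted hosts against *Ptgs*+/+ tumors, 1 of the 8 genes tested was called, where 12.5% of all genes were. The count was 3 of 10 with no filter on low counts, where 1984 of 27098 genes were called. It was 4 of 8 with only the groups compared, where 1834 of 14138 were. With each library left out it was 0 to 3. Without replicate 1 of the depleted hosts it was 0 of 8 (all genes, 1057 of 14948). It was 2 of 8 without *Ptgs*-/- replicate 1 (2082 of 14926) and 3 of 9 without replicate 2 (1860 of 14873). The genes gained were *Cma1*, *Tpsb2* and *Fcer1a*, and the cause was not tested. The median log2 fold change with NK depletion lay between 0.34 and 1.43 with each library left out.

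No value that turned was called. On the log2 fold scale in *Ptgs*-/- against *Ptgs*+/+ tumors, *Mcpt4* had 0.0173 with library size alone, 0.00723 when every library had to hold at least 10 counts and 0.12 in EB046 libraries only. *Kit* had 0.0378 and 0.0247 under the first 2, and in EB046 only *Cpa3* had 0.10 and *Fcer1a* 0.0932. *Ms4a2* had -0.0880 with NK depletion in EB046 only. There *Mcpt8* differed by -0.0577 CPM in *Ptgs*-/- against *Ptgs*+/+ tumors and by 0.189 CPM with NK depletion, and *Il4* by -0.0144 CPM in depleted hosts against *Ptgs*+/+ tumors. The cause was not tested. With each library left out, *Ptgs*-/- against *Ptgs*+/+ values ran from -0.91 to 0.34 for *Cpa3*, -0.78 to 0.38 for *Mcpt4*, -0.56 to 0.64 for *Cma1*, -0.46 to 0.75 for *Tpsb2*, -0.98 to 0.20 for *Fcer1a* and -0.17 to 0.18 for *Kit*. With NK depletion they ran from -0.32 to 0.75 for *Ms4a2* and from -0.281 to 0.189 CPM for *Mcpt8*, and for *Il4* against *Ptgs*+/+ tumors from -0.119 to 0.285 CPM.

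Whether label numbers pair the tumors was not settled. Over 11 pairs with the same number the correlation of deviations ran from -0.24 to 0.36, with 4 above 0.1. Numbers were matched without regard to the title code, so some of these pairs join EB042 with EB046, and the check cannot exclude pairing. The replicate block used the same numbers. With the number as a replicate block *Hdc* had -1.84 in *Ptgs*-/- against *Ptgs*+/+ tumors, the counts of the 10 genes called were the same, and *Kitl* (0.36, adjusted p 0.0546 by edgeR) and, in depleted hosts, *Lat* (1.43, adjusted p 0.057 by edgeR) and *Enpp3* were not called. Depth limits *Mcpt8*, *Il4*, *Ms4a2* and *Fcer1a*, with 2 to 31 counts a library.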
